A study of Mus musculus with 6 samples.

Results

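The genes of the hypoxia-inducible factor (HIF) system were followed here: the alpha subunits Hif1a, Epas1 (which encodes HIF-2 alpha) and Hif3a, the beta subunit Arnt, the prolyl hydroxylases Egln1, Egln2 and Egln3, the ubiquitin ligase subunit Vhl and the asparaginyl hydroxylase Hif1an. These 9 genes were taken by symbol from the 51826 genes of the deposited table, and all 9 passed the filter on low counts, which left 18956 genes. Hif3a prompted the choice, because it was among the genes with the smallest p in the comparison of genotypes, so its genotype difference is given as a description with no p.

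The libraries are mRNA sequencing of mouse tissue labelled as the paraventricular nucleus of the hypothalamus. Wild-type mice (WT) gave 3 libraries, and mice with ADAM17, a sheddase of the cell surface, knocked out in glutamatergic neurons (KO) gave the other 3. Replicates 1 and 2 of each genotype are male and replicate F1 is female, and values per library are given in that order throughout. The labels give no Cre driver, deleted exon, strain, age or treatment, and do not say whether a library holds 1 animal or a pool, so the tests measure only the spread between these libraries. Total counts lay between 35114426 and 54421330. KO replicate 1 stood apart, with 20.63% of its counts on mitochondrially encoded genes against 7.22% to 9.2% in the other 5 libraries. Levels of a gene across libraries are given as CPM, its counts scaled to the library total with TMM (trimmed mean of M values) factors. Adam17 itself measured 17.1, 17.2 and 15.6 CPM (WT) and 15.4, 14.5 and 13.9 CPM (KO). These values cover all cells and exons, and the difference did not pass the test (log2 difference −0.19, SE 0.11, edgeR adjusted p = 0.747). Sim1, a defining transcription factor of the paraventricular nucleus, lay between 0.18 and 1.08 TPM (the deposited level per transcript length). Otp, another of its factors, lay between 1.14 and 8.8 TPM. Its hormone genes were higher, with Crh at 8.7 to 13.6 TPM and Trh at 12.5 to 40.1 TPM. Oxt lay between 15.8 and 122 TPM and Avp between 13.4 and 158 TPM. Slc17a7, a vesicular glutamate transporter gene typical of cortex and hippocampus, lay between 341 and 745 TPM.

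HIF is a heterodimer of an alpha and a beta subunit of the bHLH-PAS family, which binds a short element with the core ACGTG or GCGTG. With oxygen present, the EGLN enzymes hydroxylate prolines of the alpha subunit, VHL binds the hydroxylated form and it is degraded, while HIF1AN hydroxylates an asparagine and blocks the binding of coactivators. HIF-3 alpha lacks the C-terminal activation domain of the other alpha subunits, and some of its splice forms restrain HIF-1. In brain, HIF-2 alpha is known from endothelial cells and astrocytes, and Hif3a is also known as a gene induced by glucocorticoids. Much of this control acts on protein, which these libraries do not measure.

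The stretches upstream of the start sites of Hif3a, Egln1 and Egln3 are shown because Hif3a is the gene the comparison turns on and Egln1 and Egln3 are known HIF targets. Each is the 250 bases before the RefSeq start site, 5′ to 3′ on the gene's strand (all minus, GRCm38.p6), with every ACGTG or GCGTG on either strand in capitals. They lie at chr7:17062428-17062677, chr8:124949255-124949504 and chr12:54203875-54204124.
Hif3a: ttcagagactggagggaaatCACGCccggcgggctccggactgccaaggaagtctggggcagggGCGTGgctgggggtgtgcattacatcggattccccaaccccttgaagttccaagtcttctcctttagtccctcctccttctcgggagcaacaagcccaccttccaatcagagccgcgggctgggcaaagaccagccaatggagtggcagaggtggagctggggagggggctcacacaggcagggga
Egln1: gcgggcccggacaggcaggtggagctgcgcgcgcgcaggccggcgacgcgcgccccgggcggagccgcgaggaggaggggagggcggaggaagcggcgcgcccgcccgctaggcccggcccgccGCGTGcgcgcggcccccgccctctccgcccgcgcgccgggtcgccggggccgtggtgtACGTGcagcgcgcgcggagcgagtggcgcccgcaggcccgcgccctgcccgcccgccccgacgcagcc
Egln3: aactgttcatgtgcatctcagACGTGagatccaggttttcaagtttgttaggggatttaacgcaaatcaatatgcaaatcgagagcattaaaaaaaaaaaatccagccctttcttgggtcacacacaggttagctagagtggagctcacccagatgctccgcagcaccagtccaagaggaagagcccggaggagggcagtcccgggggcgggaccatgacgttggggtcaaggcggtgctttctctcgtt
The Hif3a stretch held 2 copies of GCGTG, which start 230 and 186 bases before the start site (one of them on the other strand, read as CACGC), and none of ACGTG. The Egln1 stretch held 1 of each motif and the Egln3 stretch 1 ACGTG. Of the 8 members with an entry, 6 held either motif, 4 ACGTG and 4 GCGTG, while 38.6% of 27025 promoters of the same length held either, 16.6% ACGTG and 28.2% GCGTG. A match to these letters is a description of the sequence and was not measured as bound.

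By level per length, Hif3a was the least abundant of the 9 genes. The means over the 6 libraries were 80.8 ± 19.7 TPM for Egln2, 64.4 ± 6.39 TPM for Epas1, 51.4 ± 10.6 TPM for Egln1 and 45.2 ± 6.05 TPM for Hif1a (SD, n = 6). Below these came Vhl with 27.5 ± 6.17 TPM, Arnt with 15.6 ± 2.35 TPM, Hif1an with 13.7 ± 3.44 TPM, Egln3 with 8.95 ± 0.84 TPM and Hif3a with 3.55 ± 1.25 TPM. Only the steps from Hif1a to Vhl and from Egln3 to Hif3a had ranges that did not overlap, while Egln2 exceeded Epas1 in 5 of 6 libraries, Egln1 exceeded Hif1a in 4 and Arnt exceeded Hif1an in 5. The related beta subunit Arnt2, the form known from neurons, stood at 123 ± 21.3 TPM, above Arnt in every library. Among the hydroxylases, Egln2 made up 52.1% to 59.5% of the summed TPM of the 3 Egln genes, Egln1 34.9% to 38.1% and Egln3 5.35% to 9.78%.

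Hif3a was higher in all 3 KO libraries. The gene (ENSMUSG00000004328) lies on chromosome 7, from 17031507 to 17062427 on the minus strand. It measured 5.28, 5.32 and 7.20 CPM (WT) and 9.97, 9.14 and 12.6 CPM (KO). The lowest KO library was above the highest WT library, and the female library was the highest of each genotype. Mean CPM was 5.93 ± 1.10 for WT against 10.6 ± 1.79 for KO (SD, n = 3 each). The log2 difference was 0.83 (SE 0.13) or 1.78-fold. Behind these levels were 239, 226 and 424 counts (WT) and 287, 409 and 513 counts (KO). Of the 18956 genes, 325 (1.71%) had a larger log2 difference, and in 1253 genes (6.61%) all KO libraries lay above all WT libraries. Because Hif3a was chosen on this contrast, nothing is read from these shares. Within the sexes the log2 difference of the CPM values was 0.85 for the males and 0.80 for the pair of female libraries. It was 0.80 (SE 0.11) without KO replicate 1.

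**Figure D1:**
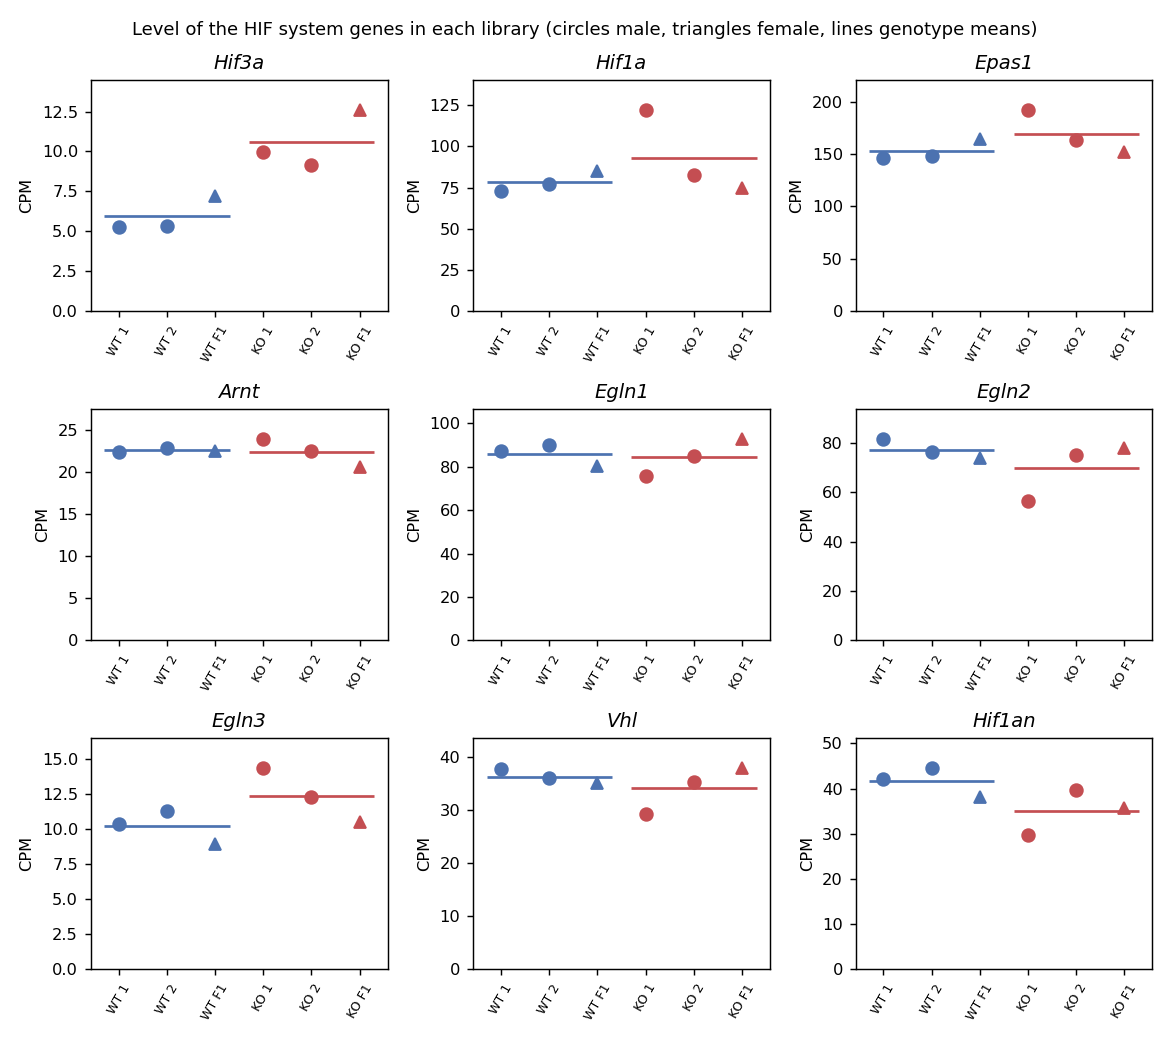
CPM (y axis, from 0) of each of the 9 genes in each library (x axis), with WT in blue, KO in red, circles for male and triangles for female libraries, and lines at the genotype means. Hif3a lies between 5.28 and 7.20 CPM in WT and between 9.14 and 12.6 CPM in KO, while the genotypes overlap in CPM in the other 8 genes.

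In the deposited TPM values the difference was smaller. Hif3a measured 2.34, 2.62 and 3.56 TPM (WT) and 3.11, 3.87 and 5.82 TPM (KO). KO replicate 1 then lay below WT replicate F1, so that the genotypes overlapped. On the log2(TPM + 1) scale the difference was 0.44, and on the log2(TPM + 0.1) scale it was 0.55. At levels this low the added 1 itself narrows a log2 difference. TPM is relative to all transcripts of a library, and the mitochondrial share of KO replicate 1 enters that sum. Its part in the smaller difference was not tested. A share within the alpha subunits does not use that sum. Hif3a made up 2.21%, 2.23% and 2.72% (WT) and 3.12%, 3.35% and 5.30% (KO) of the summed TPM of Hif1a, Epas1 and Hif3a. In this share all KO libraries lay above the WT libraries, with means of 2.39% ± 0.291 and 3.92% ± 1.20 (SD, n = 3 each). It rests on the same libraries and the contrast on which Hif3a was chosen, so nothing is read from the separation. Epas1 held 53.2% to 61.0% and Hif1a 34.9% to 43.7% of that sum, each with the genotypes overlapping.

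**Figure D2:**
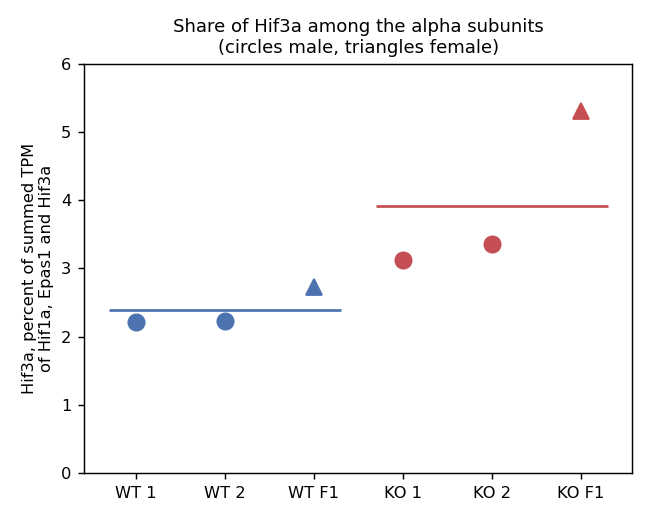
Hif3a as a percent of the summed TPM of the 3 alpha subunits (y axis, from 0) in each library (x axis), with WT in blue, KO in red, circles for male and triangles for female libraries, and lines at the genotype means. The WT libraries lie between 2.21% and 2.72% and the KO libraries between 3.12% and 5.30%.

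None of the other 8 members, all protein-coding genes, passed the test between genotypes. By the coordinates of the deposited table, read as GRCm38, Hif1a lies at chr12:73901375-73947530, Epas1 at chr17:86753907-86833410 and Arnt at chr3:95434388-95497240, all on the plus strand. Egln1 (chr8:124908587-124949324), Egln2 (chr7:27158658-27166802) and Egln3 (chr12:54178981-54203860) lie on the minus strand, and Vhl (chr6:113623959-113631633) and Hif1an (chr19:44562850-44576274) on the plus strand. In edgeR 0 passed over all genes tested and 0 had an unadjusted p under 0.05, and DESeq2 called 0. Over all genes edgeR called 1 gene (0.00528%) and DESeq2 74 (0.423%), and 6.38% had an unadjusted edgeR p under 0.05. In CPM the genotypes overlapped in all 8, where 13.9% of all genes had no overlap. In the deposited TPM they overlapped in 6, and all KO libraries lay below WT in Arnt and Hif1an. The share of all genes without overlap was not counted in TPM, so nothing particular to Arnt or Hif1an is read from this. Log2 differences were above 0 in 3 of the 8 and below 0 in 5, beside 49.4% of all genes above 0.

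The other alpha subunits and their partner overlapped between the genotypes in CPM. Hif1a, the alpha subunit of the acute response to low oxygen, measured 72.7, 77.2 and 85.3 CPM (WT) and 122, 82.4 and 74.7 CPM (KO). KO replicate 1 was far above the rest, and the other KO libraries lay within the WT range. The log2 difference was 0.24 (SE 0.20, edgeR adjusted p = 0.796), and 0.00 (SE 0.10) without KO replicate 1. Epas1 measured 146, 148 and 164 CPM (WT) and 192, 163 and 152 CPM (KO). Here too KO replicate 1 was the highest library, and the log2 difference of 0.15 (SE 0.12, edgeR adjusted p = 0.793) was 0.05 without it. Arnt, the shared partner, was the steadiest member in CPM, at 22.4, 22.9 and 22.6 CPM (WT) and 24.0, 22.5 and 20.7 CPM (KO). Its log2 difference was −0.02 (SE 0.10, edgeR adjusted p = 0.967). In the deposited TPM it measured 17.2, 16.7 and 18.6 (WT) and 12.1, 14.1 and 15.2 (KO), with no overlap, and the difference on the log2(TPM + 1) scale was −0.33 (limma-trend adjusted p = 0.557).

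Among the oxygen sensors, Egln3 had the largest difference and did not pass the test. Egln3, itself a known target of HIF, measured 10.4, 11.3 and 8.95 CPM (WT) and 14.4, 12.3 and 10.5 CPM (KO). The KO library was higher in both sexes, but KO replicate F1 lay below WT replicate 2. The log2 difference was 0.28 (SE 0.13, edgeR adjusted p = 0.735), and 0.21 (SE 0.11) without KO replicate 1. Egln1, the main enzyme that marks HIF-1 alpha, measured 87.4, 90.0 and 80.6 CPM (WT) and 75.7, 84.8 and 92.9 CPM (KO). Egln2 measured 81.6, 76.1 and 74.0 CPM (WT) and 56.4, 75.2 and 77.7 CPM (KO). KO replicate 1 was the lowest library for both. Log2 differences were −0.03 (SE 0.11, edgeR adjusted p = 0.956) for Egln1 and −0.15 (SE 0.14, adjusted p = 0.816) for Egln2, and 0.05 and −0.01 without KO replicate 1.

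Vhl and Hif1an also had their lowest value in KO replicate 1. Vhl, the subunit that recognises hydroxylated HIF, measured 37.7, 36.0 and 35.0 CPM (WT) and 29.2, 35.2 and 37.9 CPM (KO). Hif1an measured 42.1, 44.6 and 38.1 CPM (WT) and 29.6, 39.6 and 35.6 CPM (KO). The other KO libraries lay near or within the WT range of both genes. Log2 differences were −0.09 (SE 0.13, edgeR adjusted p = 0.87) for Vhl and −0.25 (SE 0.14, adjusted p = 0.745) for Hif1an. Without KO replicate 1 they were 0.02 and −0.11. In the deposited TPM Hif1an measured 16.2, 17.0 and 14.7 (WT) and 7.30, 13.8 and 13.3 (KO), with all KO libraries below WT, and the difference on the log2(TPM + 1) scale was −0.49 (limma-trend adjusted p = 0.557).

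**Figure D3:**
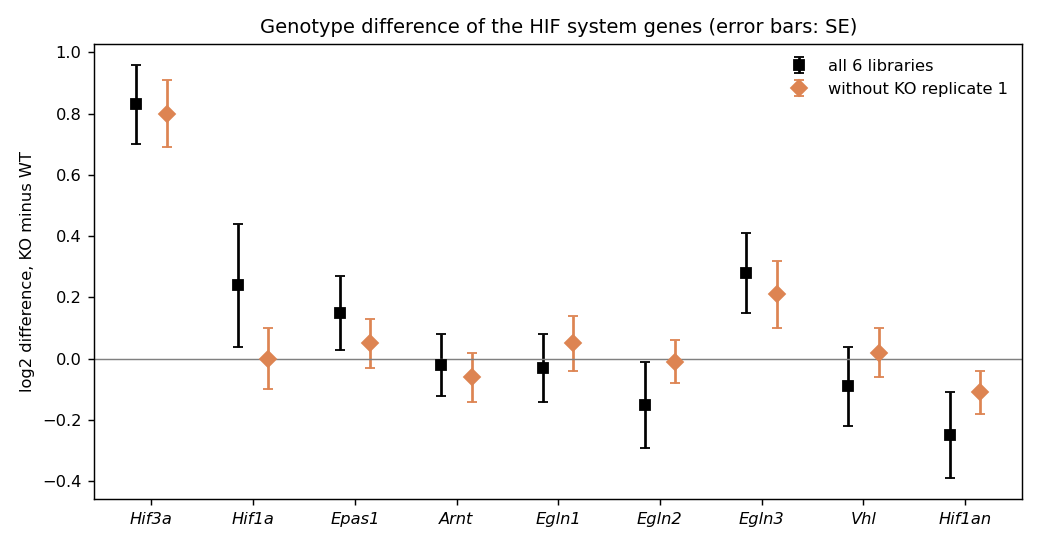
Log2 difference, KO minus WT, of the 9 genes (y axis) in the edgeR fit with all 6 libraries (black squares) and without KO replicate 1 (orange diamonds), with bars of 1 SE. Hif3a is at 0.83 and 0.80, while Hif1a goes from 0.24 to 0.00 and Hif1an from −0.25 to −0.11.

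KO replicate 1 was thus an extreme library for 8 of the 9 genes: the highest of the 6 for Hif1a, Epas1, Arnt and Egln3, and the lowest for Egln1, Egln2, Vhl and Hif1an. In that library Hif1a, Epas1 and their partner Arnt thus stood opposite to 4 of the 5 genes that restrain HIF, all but Egln3. This grouping rests on 1 library, and nothing is read from it. For Hif3a KO replicate 1 lay inside the range of the others. The same library held the highest or the lowest value in 10941 (57.7%) of all genes tested, and it is the library with 20.63% mitochondrial counts. The part of that library's RNA in these values was not tested.

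Sex was a contrast that the choice of Hif3a did not use. Each genotype has 1 female library. Hif3a was higher there than in the males of both genotypes, with means of 9.89 CPM over 2 female and 7.43 CPM over 4 male libraries. The log2 difference, female minus male, was 0.42 (SE 0.13, edgeR unadjusted p = 0.0168), and it did not pass over all genes (adjusted p = 0.941). Egln3 lay the other way, at 9.74 CPM in female and 12.1 CPM in male libraries (−0.31, SE 0.14, edgeR adjusted p = 0.941). None of the 9 members passed in edgeR or DESeq2, and 1 had an unadjusted edgeR p under 0.05. Over all genes edgeR called 0.0422% and DESeq2 0.274%, and 4.58% had an unadjusted edgeR p under 0.05.

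The genotype difference was not shown to depend on sex for any member. The interaction, female minus male difference in log2 units, was −0.04 (SE 0.28, edgeR adjusted p = 0.986) for Hif3a. The largest was −0.64 (SE 0.35, adjusted p = 0.818) for Hif1a, which was higher in KO in the males (log2 difference of the CPM values 0.42) and lower in the female pair (−0.19). In this edgeR fit 0 of the 9 passed and 0 had an unadjusted p under 0.05, where 0.0739% of all genes passed and 7.42% had an unadjusted p under 0.05. The test has 2 residual degrees of freedom, and without KO replicate 1 the Hif1a difference was 0.00.

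None of the genes for partners and the degradation machinery of HIF passed the test between genotypes. Of 25 genes, 14 lay above 0 and 11 below, with a median log2 difference of 0.05 beside −0.004 over all genes. In edgeR and DESeq2 0 passed, and 2 had an unadjusted edgeR p under 0.05, where 6.38% of all genes had one. The KO libraries all lay above WT in 4 genes and all below in 0, beside 6.61% and 7.32% of all genes. Cited2, a HIF target that competes with HIF-1 alpha for the coactivators CBP and p300, measured 37.1, 38.1 and 37.8 CPM (WT) and 64.6, 50.7 and 41.7 CPM (KO). All KO libraries lay above the narrow WT range (log2 difference 0.46, SE 0.15, edgeR adjusted p = 0.735), and the difference was 0.31 without KO replicate 1. Ube2m, which conjugates NEDD8 to cullins, had a log2 difference of 0.23 and Crebbp, which encodes CBP, of 0.22. Crebbp was at 88.7 CPM in KO replicate 1 against 67.6 and 66.3 CPM in the other KO libraries, and at 0.09 on the log2 scale without it. Arnt2 averaged 309 ± 24.4 CPM for WT against 328 ± 31.6 CPM for KO (SD, n = 3 each; log2 difference 0.09, SE 0.11, and 0.18 without KO replicate 1).

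None of the genes listed for glucose uptake, glycolysis and lactate transport, many but not all of them known to be induced by HIF-1, passed the test. Of 23 genes, 7 lay above 0 and 16 below, beside 49.4% of all genes above 0. The median log2 difference was −0.05. Without KO replicate 1 the direction turned, with a median of 0.06 and most of these genes above 0. In edgeR and DESeq2 0 passed, and 2 had an unadjusted edgeR p under 0.05, where 6.38% of all genes had one. The KO libraries all lay above WT in 1 gene and all below in 2, beside 6.61% and 7.32% of all genes. Slc16a1, a transporter of lactate, measured 29.5, 28.7 and 34.0 CPM (WT) and 24.6, 25.4 and 24.8 CPM (KO), with all KO libraries below WT (−0.30, SE 0.11, edgeR adjusted p = 0.735). The glycolytic enzyme gene Pgam1 had a log2 difference of 0.22 and the regulator Pfkfb3 of 0.29. The glucose transporter gene Slc2a1 (0.12), the lactate dehydrogenase gene Ldha (−0.12) and Pdk1 (0.00), whose product inhibits pyruvate dehydrogenase, had small differences. Without KO replicate 1 Pfkfb3 was at 0.15 and Ldha at 0.06. Slc2a3, the neuronal glucose transporter, was named after its values were seen: it measured 122, 125 and 131 CPM (WT) and 91.9, 37.6 and 115 CPM (KO). All KO libraries were below WT, with KO replicate 2 far below the rest (−0.68, SE 0.35, edgeR adjusted p = 0.744, and −1.03 without KO replicate 1).

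Other known targets of HIF went both ways. Of 43 genes 42 were tested, 22 above 0 and 20 below, with a median log2 difference of 0.00. In edgeR and DESeq2 0 passed, and 4 had an unadjusted edgeR p under 0.05, where 6.38% of all genes had one. The KO libraries all lay above WT in 4 genes and all below in 7, where the shares over all genes were 6.61% and 7.32%. Adm, which encodes the vasodilator peptide adrenomedullin, measured 1.63, 1.60 and 2.05 CPM (WT) and 2.74, 3.31 and 3.75 CPM (KO). As for Hif3a, in CPM every KO library was above every WT library and the female library was the highest of each genotype. The log2 difference was 0.89 (SE 0.19, edgeR unadjusted p = 0.00271), and it did not pass in edgeR (adjusted p = 0.735) or DESeq2 (adjusted p = 0.0691). These levels rest on 68 to 153 counts a library. In the deposited TPM Adm measured 2.86, 2.74 and 3.76 (WT) and 3.3, 5.84 and 6.31 (KO). KO replicate 1 then lay below WT replicate F1, so that the genotypes overlapped, as they did for Hif3a.

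Car12, a carbonic anhydrase gene, had a log2 difference of 0.28, and Plod1, a collagen lysyl hydroxylase gene, of −0.30. Vegfa, the growth factor of vessels, measured 46.2, 49.1 and 61.1 CPM (WT) and 42.9, 45.6 and 65.6 CPM (KO), with overlap and a log2 difference of −0.04 (SE 0.10). The mitophagy receptor gene Bnip3 (0.15) and the stress gene Ddit4 (−0.32) did not pass either, and were at 0.04 and −0.15 without KO replicate 1. Ak4, a mitochondrial adenylate kinase gene, was named after its values were seen: it measured 31.0, 27.8 and 34.7 CPM (WT) and 7.78, 26.6 and 8.21 CPM (KO). KO replicates 1 and F1 were far below the rest and KO replicate 2 just below WT (−1.19, SE 0.52, edgeR adjusted p = 0.735).

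**Figure D4:**
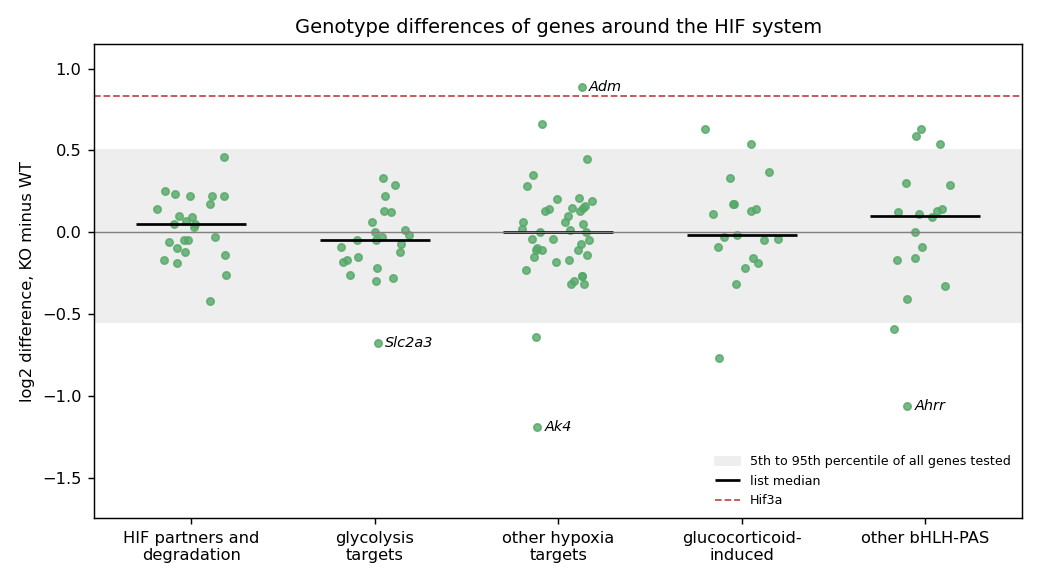
Log2 difference, KO minus WT (y axis), of each tested gene (points) in 5 gene lists (x axis), with list medians as black lines, the 5th to 95th percentile of all genes tested (−0.55 to 0.50) in grey and Hif3a at 0.83 as a dashed line. The list medians lie between −0.05 and 0.10, and Adm at 0.89 is the single point above Hif3a.

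Glucocorticoid-induced genes other than Hif3a were divided. Of 19 genes, 9 lay above 0 and 10 below, with a median log2 difference of −0.02. In edgeR and DESeq2 0 passed, and 3 had an unadjusted edgeR p under 0.05, where 6.38% of all genes had one. The KO libraries all lay above WT in 4 genes and all below in 0, beside 6.61% and 7.32% of all genes. Klf9, a transcription factor gene, measured 190, 195 and 142 CPM (WT) and 249, 215 and 210 CPM (KO), with all KO libraries above WT (0.37, SE 0.11, edgeR adjusted p = 0.735). The clock gene Per1 (0.63) and the cell cycle inhibitor gene Cdkn1a (0.54) were likewise above WT in every KO library, and Per1 was at 90.7 CPM in KO replicate 1 against 50.4 to 55.4 CPM in the other KO libraries. Cdkn1a was at 38.4 CPM there against 20.5 and 23.2 CPM, and without KO replicate 1 the log2 differences were 0.37 for Per1 and 0.28 for Cdkn1a. Fkbp5, the receptor cochaperone gene often used as a readout of the hormone, averaged 42.3 ± 1.48 CPM for WT against 46.7 ± 4.66 CPM for KO (SD, n = 3 each; 0.14, SE 0.11, edgeR adjusted p = 0.792). The genotypes overlapped in it, and the log2 difference was 0.23 without KO replicate 1. The summed CPM of the list, to which Klf9 adds most in the KO libraries, was 713 to 745 in WT and 788 to 846 in KO.

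Other genes of the bHLH-PAS family had 10 of 18 members above 0 and 8 below, with a median log2 difference of 0.10. In edgeR and DESeq2 0 passed, and 6 had an unadjusted edgeR p under 0.05, where 6.38% of all genes had one. The KO libraries all lay above WT in 5 genes and all below in 1, beside 6.61% and 7.32% of all genes. The median was 0.05 without KO replicate 1. Npas2, a partner of the clock factor BMAL1, had a log2 difference of 0.54 (SE 0.14, edgeR adjusted p = 0.735), and the activity-induced factor gene Npas4 of 0.59 (SE 0.15, adjusted p = 0.735). Ahrr, the repressor of the aryl hydrocarbon receptor, measured 0.795, 0.824 and 1.02 CPM (WT) and 0.417, 0.447 and 0.392 CPM (KO). All KO libraries were below WT (−1.06, SE 0.30, edgeR adjusted p = 0.735).

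Markers of the cell types in which these genes are known were compared as summed CPM. The 15 endothelial markers summed to 425 to 456 CPM in WT and 416 to 472 CPM in KO, the 11 pericyte and smooth muscle markers to 257 to 353 and 307 to 331 CPM, and the 12 astrocyte markers to 3400 to 3530 and 3330 to 4460 CPM. The 10 microglia markers summed to 329 to 371 and 287 to 381 CPM. One of them, P2ry12, a purine receptor gene named after its values were seen, measured 16.9, 21.7 and 9.63 CPM (WT) and 34.0, 27.9 and 22.7 CPM (KO). It passed in DESeq2 (adjusted p = 0.0124) and not in edgeR (log2 difference 0.86, SE 0.18, adjusted p = 0.735), and 7 of the 10 microglia markers lay below 0. The sums of the genotypes overlapped in these lists and in those for oligodendrocytes, choroid plexus and ependyma, fibroblasts, red blood cells, the paraventricular nucleus, and cortex and hippocampus. In the last list 12 of 13 genes lay above 0, with a median log2 difference of 0.31 and sums of 1740 to 2100 CPM in WT and 2050 to 2440 CPM in KO. In the paraventricular list, where Nr3c1 adds most to the sum, 5 of 10 genes lay above 0 and 5 below. Avp measured 27.7, 5.96 and 38.2 CPM (WT) and 5.25, 8.34 and 13.8 CPM (KO). It overlapped between genotypes (−1.36, SE 0.56, edgeR adjusted p = 0.735), as did Oxt (−1.17, SE 0.58, adjusted p = 0.744). The part of tissue composition in the Hif3a difference was not tested. In such tissue a change in the number of cells of a type and a change in RNA per cell cannot be told apart.

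The genes whose course over the 6 libraries was most like that of Hif3a were found by Pearson correlation of log2 CPM with 13729 named genes of at least 1 CPM. Among the 8 highest were Tmem252 (0.996), Shc4 (0.984), Rhou (0.975), Tfap4 (0.972), Gimap6 (0.97), Adm (0.965) and Kctd14 (0.965), and 12 genes reached 0.95. Tmem252, a membrane protein gene, measured 1.94, 2.10 and 2.46 CPM (WT) and 3.23, 3.02 and 3.85 CPM (KO). Its libraries stood in the same order as those of Hif3a, with a log2 difference of 0.63. The log2 differences of the other genes named ran from 0.13 for Rhou to 0.89 for Adm. With 6 libraries that share genotype and sex, the highest of so many correlations are high by selection and are given as a description.

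Counts of some members can include reads of overlapping genes, since the strand setting of the counting is not given. Gm15283 lies opposite the whole of Hif1a at 0.276 CPM, Gm42672 shares 352 bases with Arnt at 0.29 CPM, and Cyp2t4 shares 11 bases with Egln2 at 0.623 CPM. The gene model 4833404L02Rik shares 908 bases with Hif3a and stood at 0.00736 CPM. No tested gene overlapped Hif3a, Epas1, Egln1, Egln3, Vhl or Hif1an.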

How the data were processed

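The authors deposited raw counts, TPM and FPKM of 51826 genes in 6 libraries, per the file headers. The submitters' processing notes name FastQC 0.11.2, Trimmomatic 0.36 and bedtools 2.26.0. Aligner, counting tool, strand setting and build: not given in the sources used here. Of the gene identifiers 99.6% matched GENCODE M21 (GRCm38), 94.2% of them with the same coordinates.

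Deposited counts were filtered with filterByExpr by genotype and scaled by TMM. They were tested with edgeR 4.0.16 (R 4.3.3, robust quasi-likelihood, genotype and sex as terms), with Benjamini-Hochberg adjustment over 18956 genes at a threshold of 0.05. SE is the log2 difference divided by the square root of F. Levels between genes are in the deposited TPM, and the deposited FPKM was an alternative. Alternatives included DESeq2 1.42.0 and limma-trend (limma 3.58.1). The scripts were tested on simulated data. A count of 0 would allow up to 3 counts (0.055 to 0.085 CPM), and no member was near it.

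The 9 members and the gene lists were chosen with earlier results of these data known, and medians and counts of lists carry no test. Named genes were the 9 members, the 3 genes with the smallest p of each list described, since none passed, and Arnt2, Vegfa, Slc2a1, Pdk1, Ldha, Bnip3, Ddit4, Fkbp5 and Adam17. The genes most like Hif3a were taken by rank of correlation (1 of the 8 is not reported here), and genes named otherwise are said to be so or define a cell type or tissue. Promoters are from RefSeq (GRCm38.p6), with 8 of 9 members matched.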

Additional observations from a re-analysis of the deposited data

How the results depend on the processing

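The Hif3a log2 difference of 0.83 kept its direction in all 17 alternatives. It was 0.80 to 0.87 with 1 library left out, 0.67 with library totals, and 0.44 and 0.55 by limma-trend on log2(TPM + 1) and log2(TPM + 0.1). Hif3a was chosen on this contrast, and in CPM all its KO libraries lay above WT. Leaving out 1 library therefore could not turn the direction, and nothing is read from its being kept. None of the other 8 members passed in any alternative. With the replicate number as a replicate block Hif3a was at 0.83 and 0 genes passed over the table, against 1 without the block. Same-numbered libraries did not deviate together (correlations −0.04, 0.02 and 0.02), so the numbers were not taken as pairs, and a lost call is no sign of a weaker effect. The count over all genes was 4 with no count filter, 74 by DESeq2, 3 with no sex term, 18 in males only, 4 and 5 by limma-trend with the pseudocounts 1 and 0.1, and 0 to 20 with 1 library left out (0 without WT replicate 1, WT replicate 2 or KO replicate 2, 20 without WT replicate F1, 7 and 15 without KO replicates 1 and F1). Because the fit holds sex, dropping a female library leaves only males for genotype.

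Library totals shift the median of all genes to −0.169. With them the medians were −0.12 for HIF partners and −0.17 for the other hypoxia targets, and Epas1 was at −0.03. By limma-trend with the pseudocounts 1 and 0.1 the medians were −0.22 and −0.23 for HIF partners, −0.35 and −0.37 for glycolysis and −0.24 and −0.35 for the other hypoxia targets. In these fits Hif1a was at −0.14 and −0.14, Epas1 at −0.14 and −0.15 and Egln3 at −0.01 and −0.01. The other 5 members kept their direction and lay further below 0, at −0.33 and −0.34 for Arnt, −0.31 and −0.32 for Egln1, −0.44 and −0.45 for Egln2, −0.37 and −0.38 for Vhl and −0.49 and −0.53 for Hif1an. The median of all genes was not taken in the limma-trend fits. Nothing particular to these lists or members is therefore read from their TPM values. Arnt was at 0.04 in males only. With 1 library left out, Arnt ranged from −0.06 to 0.04 (0.03 without the WT female library), Egln1 from −0.14 to 0.05 (0.02 without WT replicate 2) and Vhl from −0.19 to 0.02, the upper values of Egln1 and Vhl being those without KO replicate 1. The direction of the female minus male difference turned with library totals for Hif1a (0.01), Epas1 (0.09), Arnt (0.04) and Hif1an (0.04), and with 1 male library left out it turned for Hif1a (−0.19 to 0.05), Epas1 (−0.06 to 0.05), Egln1 (−0.02 to 0.07) and Egln2 (−0.03 to 0.15), each without KO replicate 1, and for Hif1an (−0.17 to 0.01) without KO replicate 2. None of these values passed, and the cause was not tested. Depth did not limit the members, the lowest count being 226 for Hif3a.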

Other observations

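The deposited TPM and FPKM values of Hif3a, Hif1a and Arnt do not rest on 1 gene length. The length implied by count, FPKM and library total lay between 3977 and 4084 bases in the 6 libraries for Egln1, which has 1 transcript in GENCODE M21. It lay between 5205 and 5979 bases for Hif3a, with 4 annotated transcripts, and between 4105 and 5015 bases for Hif1a, with 5. For Hif3a it was 5979, 5367 and 5452 bases (WT) and 5205, 5654 and 5560 bases (KO), so the genotypes overlapped. For Arnt it was 3466, 3623 and 3272 bases (WT) and 3230, 3808 and 3497 bases (KO), also with overlap. The part of these lengths in the TPM differences was not tested.

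After the mean of each genotype was removed, the 5 genes whose log2 CPM over the 6 libraries correlated most with Hif3a were Pcdhb21 (1.0 after rounding, with 0 counts in WT replicates 1 and 2), Ranbp17 (0.999), Vdac3 (0.996), Meg3 (0.993) and Wdfy2 (0.993). Pcdhb21 measured 0, 0 and 0.458 CPM (WT) and 0.799, 0.358 and 4.8 CPM (KO). Its mean thus rests mostly on KO replicate F1, where Hif3a was also highest, and nothing is read from its correlation. Ranbp17 measured 4.59, 4.69 and 6.08 CPM (WT) and 4.45, 4.11 and 5.56 CPM (KO), highest in the female library of each genotype. None of these 5 is among the 8 genes most like Hif3a with the genotype means kept. As the highest of 13729 correlations, they too are high by selection and are given as a description.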
